A study of Mus musculus with 90 samples.

Results

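Peaks of H3K9me3, Trim28 and Uhrf1 were located at 8 genes of the germline, Dazl, Ddx4, Mael, Tex101, Sycp1, Sycp3, Hormad1 and Dpep3, in mouse embryonic stem cells (ESCs). The genes were taken by name from the 22367 protein-coding genes on chromosomes 1 to 19, X and Y of the mm9 annotation (GENCODE vM1). Each was searched from 10 kb before its gene record to 10 kb after it. The start window reached 2 kb on either side of the 5′ end of the gene record, and the body was the rest of the record. All 8 matched 1 record each. The lists hold peak positions only, so neither the DNA methylation nor the expression of these genes was measured here, and their silencing is taken from general knowledge.

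The cells were of 3 lines. The WT cells were of the V65 background. TKOL cells, from J1 ESCs, were Dnmt3a and Dnmt3b knockouts that carried an shRNA against Dnmt1, a clonal line whose shRNA cassette can be removed by Cre. DKO0 cells were derived from it by removing that cassette, so that endogenous Dnmt1 returned while Dnmt3a and Dnmt3b stayed knocked out. H3K9me3 and Trim28 were measured by chromatin immunoprecipitation followed by sequencing in cells of these genotypes. Uhrf1 was measured with an antibody against FLAG, by ChIPmentation, in derivatives of each line that had a FLAG tag on the endogenous Uhrf1. All ESCs were kept on CD1 mouse embryonic fibroblasts as feeders. The tag was introduced into WT and TKOL cells, from which single clones were isolated. WT differed from the other two lines in background as well as in genotype and, for Uhrf1, in the tagged clone, and these cannot be told apart. The labels give no passage for the DKO0 cells, and the study's names for the DKO0 lists carry a different passage mark for Uhrf1 than for H3K9me3 and Trim28, so the marks may come from DKO0 cells of different passages.

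Each line and mark had 2 replicate lists, which gives 18 lists, and 6 further lists were called by the authors on the pooled reads of both replicates (TKOL and DKO0 only). Nothing in the labels says that replicates were separate cultures, so the spread between them may be technical. Replicate lists held 25953 to 63579 peaks for H3K9me3, 15995 to 31921 for Trim28 and 11440 to 49156 for Uhrf1, and 14.8% to 32.6% of the bases under peaks in either replicate of a line were under peaks in both. The read depth behind each list is unknown from these files. A peak absent from a list was not called at that depth, which does not show that the protein or mark is absent. In these bulk cells, fewer cells with a mark and less of it per cell cannot be told apart.

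Germline genes are expressed in germ cells and kept off in most other cells. Many have CpG-rich promoters that gain DNA methylation around implantation, and this methylation is known to be part of how they stay silent. Dnmt1 copies methylation after replication, and Uhrf1 binds hemimethylated CpGs and brings Dnmt1 to them. H3K9me3 is a histone mark of silent chromatin, and Trim28 is a corepressor that recruits the H3K9 methyltransferase Setdb1, best known at retrotransposons. In ESCs, a further repressor of germline genes is the non-canonical Polycomb complex PRC1.6, which holds E2f6 and the E-box binding pair Mga and Max.

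The genes fell into 3 roles. Dazl, an RNA-binding protein that promotes translation in germ cells, Ddx4, the Vasa-type RNA helicase of germ granules, and Mael, a factor of the piRNA pathway that represses transposons, act on RNA. Sycp1, the transverse filament of the synaptonemal complex, Sycp3, part of its lateral element, and Hormad1, a protein of the meiotic chromosome axis, act in meiosis. Tex101, a glycoprotein of the germ cell surface, and Dpep3, a membrane dipeptidase of the testis that binds Tex101, act at the cell surface. Their whole gene records ran from 4.04 kb for Tex101 to 117.6 kb for Sycp1, against a median of 15.4 kb over all protein-coding genes.

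Of the 8 starts, 7 had more CpGs than the median start. Within 500 bp of the start, Ddx4 had 77 CpGs, Dazl 72, Sycp1 65, Mael 61, Hormad1 47, Sycp3 46, Dpep3 43 and Tex101 32, against a median of 41 over all protein-coding genes. The 200 bases upstream of the start are printed for the 5 genes at which a start peak was found and for Sycp3, which had none. The bases before a transcript start inside Sycp1 are added, since the most reproducible peaks of the whole set lay within 2 kb of that start. Not all of those peaks covered the printed bases, and no Trim28 peak in a replicate list did. All are mm9, read 5′ to 3′ on the strand of the gene, and capitals mark CpGs.
Dpep3, chr8:108503320-108503519, minus strand: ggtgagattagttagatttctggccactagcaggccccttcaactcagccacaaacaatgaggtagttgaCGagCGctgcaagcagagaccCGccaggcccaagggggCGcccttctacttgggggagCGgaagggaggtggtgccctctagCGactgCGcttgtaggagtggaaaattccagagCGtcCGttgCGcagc
Sycp1, chr3:102740024-102740223, minus strand: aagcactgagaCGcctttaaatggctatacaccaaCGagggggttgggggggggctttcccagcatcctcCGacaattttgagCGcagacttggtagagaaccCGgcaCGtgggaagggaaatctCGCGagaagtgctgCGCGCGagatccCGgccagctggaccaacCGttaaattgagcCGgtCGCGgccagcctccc
Ddx4, chr13:113442519-113442718, minus strand: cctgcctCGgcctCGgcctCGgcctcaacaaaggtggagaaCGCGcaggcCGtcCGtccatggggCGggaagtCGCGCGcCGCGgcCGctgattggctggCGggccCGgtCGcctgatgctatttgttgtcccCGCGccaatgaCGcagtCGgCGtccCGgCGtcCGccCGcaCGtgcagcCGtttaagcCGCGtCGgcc
Mael, chr1:168168876-168169075, minus strand: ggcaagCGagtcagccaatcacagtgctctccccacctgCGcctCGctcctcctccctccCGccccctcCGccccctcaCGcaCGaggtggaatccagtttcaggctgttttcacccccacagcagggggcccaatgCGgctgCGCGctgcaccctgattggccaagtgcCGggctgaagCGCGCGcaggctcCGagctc
Dazl, chr17:50432925-50433124, minus strand: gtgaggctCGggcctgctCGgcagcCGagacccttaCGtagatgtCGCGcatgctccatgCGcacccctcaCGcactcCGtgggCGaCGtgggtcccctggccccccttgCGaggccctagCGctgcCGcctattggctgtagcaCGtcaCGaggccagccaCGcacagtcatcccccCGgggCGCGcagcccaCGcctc
Sycp3, chr10:87922114-87922313, plus strand: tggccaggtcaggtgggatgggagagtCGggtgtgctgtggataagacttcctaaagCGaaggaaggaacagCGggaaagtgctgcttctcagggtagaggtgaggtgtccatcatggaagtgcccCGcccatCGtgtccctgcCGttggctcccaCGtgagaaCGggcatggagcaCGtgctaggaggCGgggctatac
Sycp1, transcript start inside the gene, chr3:102637718-102637917, minus strand: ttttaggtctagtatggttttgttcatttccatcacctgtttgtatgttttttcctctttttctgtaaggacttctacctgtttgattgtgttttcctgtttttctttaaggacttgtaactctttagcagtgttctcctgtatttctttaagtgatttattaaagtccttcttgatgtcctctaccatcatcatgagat

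The upstream bases held 31 CpGs at Ddx4, 21 at Dazl, 16 at Sycp1, 15 at Mael and 10 at both Dpep3 and Sycp3, against a median of 7 over all protein-coding genes. The bases before the start inside Sycp1 held 0. Motifs were searched on both strands of the upstream bases. The E-box CACGTG stood upstream of 4 of the 8 genes (Ddx4, Sycp1, Sycp3 and Hormad1) and of 5.58% of all protein-coding genes. TCCCGC, the core of an E2F site, stood upstream of 4 (Ddx4, Mael, Sycp3 and Hormad1) and of 18.3% of all. The longer GGCGGGAA, which contains the reverse complement of TCCCGC, stood upstream of 2 (Ddx4 and Hormad1) and of 2.09%. A match is a description of the letters and not a binding site.

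Start peaks, of any mark in any list, were found at 5 of the 8 genes. The share of all protein-coding genes with a start peak in any list was not counted, so this 5 has no background beside it. Of the 144 pairs of a gene and a replicate list, 11, or 7.64%, had a start peak, against 2.88% of such pairs over all protein-coding genes. Of these, 6 were at Dpep3, and without Dpep3 the share was 3.97%. Sycp1 had 2, and Dazl, Ddx4 and Mael had 1 each. Tex101, Sycp3 and Hormad1 had no peak at the start or in the body in any of the 24 lists. The 14 start peaks in replicate lists had a fold enrichment over the local background of 2.75 to 3.46, and −log10 q values from 1.09 to 4.41, where a larger value is a smaller q. Ranked by −log10 q within its own list, the median start peak exceeded 36.9% of the peaks, and 5 of the 14 exceeded more than 50%, up to 91.9%.

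**Figure D1:**
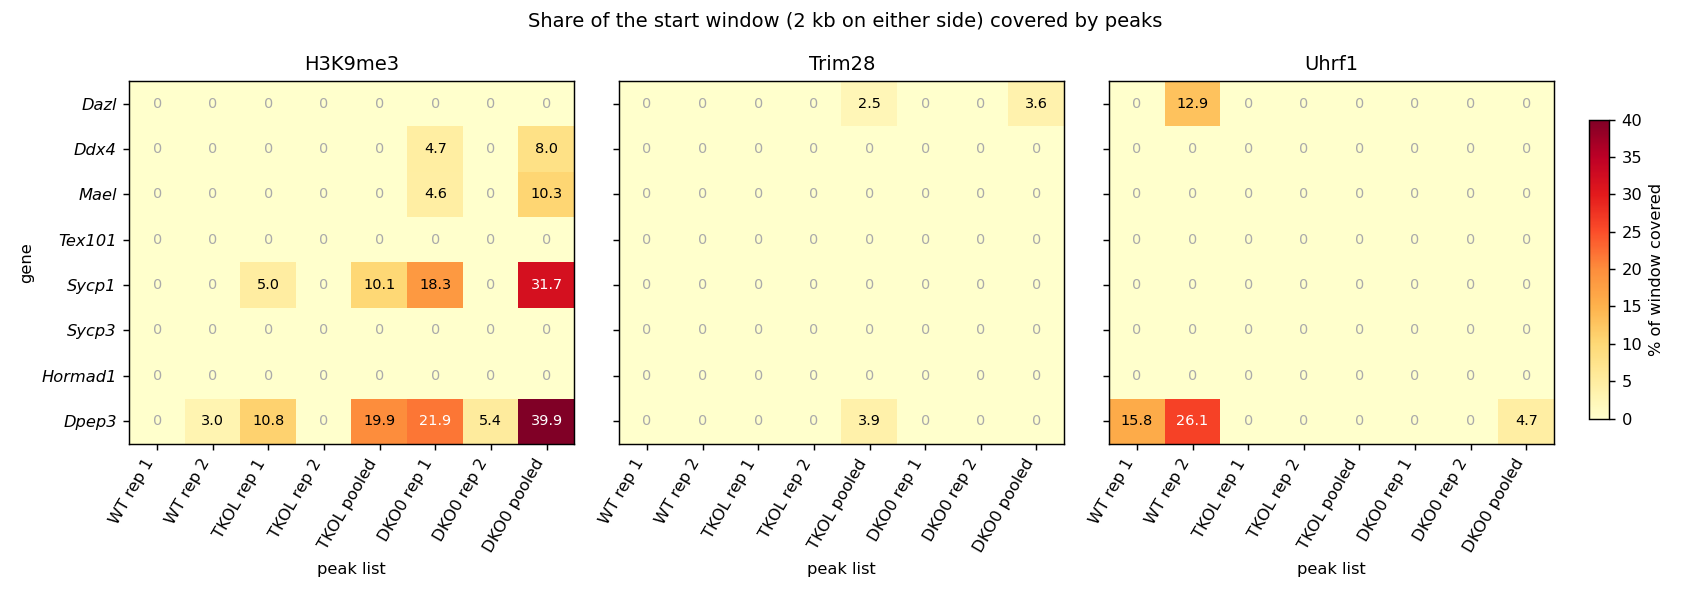
Share of the start window covered by peaks (percent of 4001 bp, colour and printed value) for the 8 genes (vertical axis) in each of the 24 lists (horizontal axis, by mark). Coverage reached 39.9% for H3K9me3 at Dpep3 in the pooled DKO0 list, and the rows of Tex101, Sycp3 and Hormad1 are 0 throughout.

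H3K9me3 was found at the start of 4 genes in DKO0, Ddx4, Mael, Sycp1 and Dpep3, of 2 in TKOL, Sycp1 and Dpep3, and of 1 in WT, Dpep3, when a peak in at least 1 replicate list counted. The same rule called 6.17% of all protein-coding genes in DKO0, 4.01% in TKOL and 2.67% in WT. With a peak asked for in both replicate lists, 1 gene was left in DKO0, Dpep3, and 0 in TKOL and in WT, against 1.12%, 0.711% and 0.733% of all genes. The pooled lists held the same 4 genes in DKO0 and the same 2 in TKOL, against 5.5% and 5.12% of all genes. Most of the DKO0 calls came from 1 library: replicate 1, which had the most peaks of any H3K9me3 replicate list, held all 4, and replicate 2 held Dpep3 only. When each list was cut to the 25953 peaks of the shortest H3K9me3 list, Dpep3 was the only gene left in DKO0 replicate 1, and none was left in replicate 2.

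Dpep3 carried H3K9me3 upstream of its start in more lists than any other of the 8. The share of its start window covered was 0% and 3.0% in the WT lists, 10.8% and 0% in the TKOL lists, and 21.9% and 5.4% in the DKO0 lists. Both DKO0 lists were above 0, but DKO0 replicate 2 lay below TKOL replicate 1, so the lines overlapped. Compared by replicate number (the replicate block), DKO0 was above TKOL in both, and the count of genes with more H3K9me3 at the start in DKO0 rose from 0 to 1. The DKO0 mean was 13.6% ± 11.6 (SD, n = 2 lists) and the TKOL mean 5.42% ± 7.67 (SD, n = 2), with p = 0.667 in an exact two-sided permutation test, which with 2 lists against 2 cannot go below 0.333.

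The Dpep3 peaks of the DKO0 replicates did not touch each other. The replicate 1 peak ran from -1205 to -331 bp relative to the start, with a fold enrichment of 3.44 and a −log10 q of 4.41, above 88.9% of the peaks of its list. The replicate 2 peak ran from -1954 to -1739 bp, with a −log10 q of 1.12, above 2.21% of its list. The pooled DKO0 list held peaks at both places, the nearer one from -1258 to -31 bp with a −log10 q of 6.55. That was the only start peak at the 8 genes with a −log10 q of at least 5. TKOL replicate 1 (-727 to -294 bp) and WT replicate 2 (-462 to -343 bp) had shorter peaks of −log10 q 1.59 and 1.12 in the same upstream stretch. None of these upstream peaks fell in an annotated gene. The count of 1 gene in both DKO0 lists rests on replicate 2, and it fell to 0 with a window of 1 kb, with equal numbers of peaks per list and with a −log10 q of at least 5.

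At Sycp1 the H3K9me3 peaks at the start were in replicate 1 only, of both J1 lines. The start window was covered to 5.0% in TKOL replicate 1 and 18.3% in DKO0 replicate 1, and to 0% in the other 4 replicate lists. The DKO0 peak ran from -82 to 651 bp, over coding exon and 5′ untranslated sequence, with a fold enrichment of 2.84 and a −log10 q of 2.07. In TKOL the peak ran from -184 to 14 bp with a −log10 q of 1.12. The pooled lists extended these to a peak of 1270 bp in DKO0, from -404 to 865 bp, and to a pair of short peaks in TKOL. The lines were not separated by the exact permutation test (two-sided p = 1.0 for DKO0 against TKOL, n = 2 lists each).

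Ddx4 and Mael had H3K9me3 at the start in DKO0 only among the lists searched, and there in replicate 1 and the pooled list. The Ddx4 peak covered 4.72% of the window in replicate 1, from -176 to 12 bp, with a fold enrichment of 2.91 and a −log10 q of 1.79. The Mael peak covered 4.62%, from 59 to 243 bp, over exon sequence, with a fold enrichment of 2.88 and a −log10 q of 1.74. All other replicate lists were at 0% for both genes. Both peaks were near the middle of their list, above 45.6% and 42.9% of its peaks, and p was 1.0 for each in the exact two-sided permutation test of DKO0 against TKOL (n = 2 lists each). Both were lost with equal numbers of peaks per list.

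**Figure D2:**
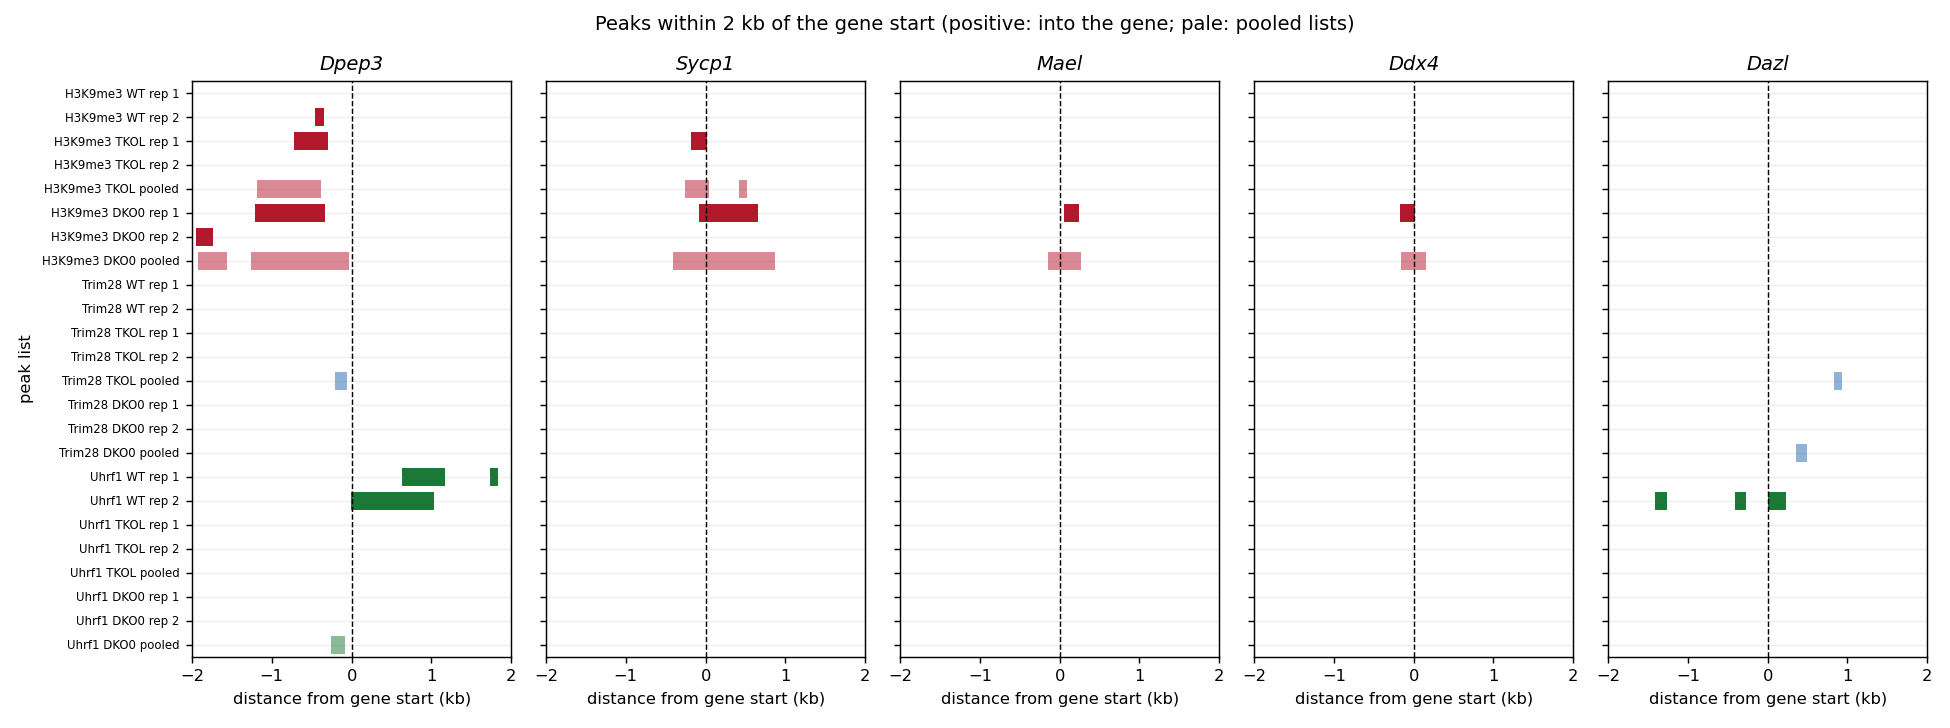
Position of each peak within 2 kb of the start (horizontal axis, kb, positive into the gene) at the 5 genes that had one, by list (vertical axis; red H3K9me3, blue Trim28, green Uhrf1; pale bars are pooled lists). H3K9me3 at Dpep3 lies upstream of the start and Uhrf1 in WT at or after it. The H3K9me3 peaks of Sycp1 and Ddx4 in DKO0 lie over the start itself, as does the pooled Mael peak. The Mael peak of DKO0 replicate 1 begins 59 bp after the start.

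Uhrf1 was found at the start of 2 genes, Dazl and Dpep3, and only in WT among the replicate lists. With at least 1 replicate list, 2 of the 8 were called in WT, 0 in TKOL and 0 in DKO0, against 4.39%, 5.54% and 7.26% of all protein-coding genes. With both lists, 1 was called in WT, Dpep3, and 0 in the other lines, against 1.02% in WT, 0.733% in TKOL and 1.01% in DKO0. In the pooled lists 0 of the 8 were called in TKOL and 1 in DKO0, against 5.1% and 11.6%. The 1 was again Dpep3, at a place upstream of the WT peaks.

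For Dpep3 the share of the start window covered by Uhrf1 peaks was 15.8% and 26.1% in the WT lists and 0% in both TKOL and both DKO0 lists. This was the only case among the 8 genes in which the lists of WT, or of DKO0, did not overlap those of TKOL for a mark at the start. The mean was 21.0% ± 7.28 (SD, n = 2 lists) in WT and 0% in TKOL, with p = 0.333 in the exact two-sided permutation test, the smallest value that 2 lists against 2 allow. The WT peaks lay in the first part of the gene, over coding exons: from 636 to 1165 bp and from 1736 to 1838 bp in replicate 1, with −log10 q of 2.30 and 1.09, and from -9 to 1035 bp in replicate 2, with 2.02. The WT Uhrf1 peaks lay downstream of the H3K9me3 peaks of the same gene, and the overlap between the replicates ran from 636 to 1035 bp. The pooled DKO0 Uhrf1 peak at Dpep3 lay elsewhere, from -263 to -77 bp, with a −log10 q of 2.24. It touched none of the WT Uhrf1 peaks and fell within the pooled DKO0 H3K9me3 peak that ran from -1258 to -31 bp. The WT lists held more Uhrf1 peaks (30134 and 49156) than those of the other lines (11440 to 17444), and with 11440 peaks per list Dpep3 kept its Uhrf1 peak in WT replicate 1 and not in replicate 2. The part of list size in this difference was not tested further.

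At Dazl the Uhrf1 peaks were in WT replicate 2 alone, the longest Uhrf1 list. They covered 12.9% of the start window there and 0% in the other 5 replicate lists. The peak at the start itself, from -1 to 227 bp, over exon sequence, had the largest −log10 q of any Uhrf1 peak at these genes, 3.44, above 91.9% of its list, and it was kept with 11440 peaks per list. A pair of weaker peaks lay upstream, from -405 to -274 bp and from -1416 to -1260 bp. WT did not separate from TKOL at Dazl (exact two-sided permutation test, p = 1.0, n = 2 lists each).

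Counted over the 8 genes, start coverage in both DKO0 lists lay above both TKOL lists for 0 genes with each mark, and below for 0. The same held of 0.291% (above) and 0.116% (below) of all protein-coding genes for H3K9me3, 0.0537% and 0.246% for Trim28, and 0.519% and 0.331% for Uhrf1. Both WT lists lay above both TKOL lists for 1 gene with Uhrf1, Dpep3, and for 0 with H3K9me3 and Trim28, and below for 0 with every mark. Over all genes these shares were 0.206% (above) and 0.349% (below) for H3K9me3, 0.192% and 0.201% for Trim28, and 0.899% and 0.554% for Uhrf1. Across the 8 pairs of a gene and a comparison in which a peak was present, every p was 1.0 after Benjamini-Hochberg adjustment of the exact permutation tests.

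**Figure D3:**
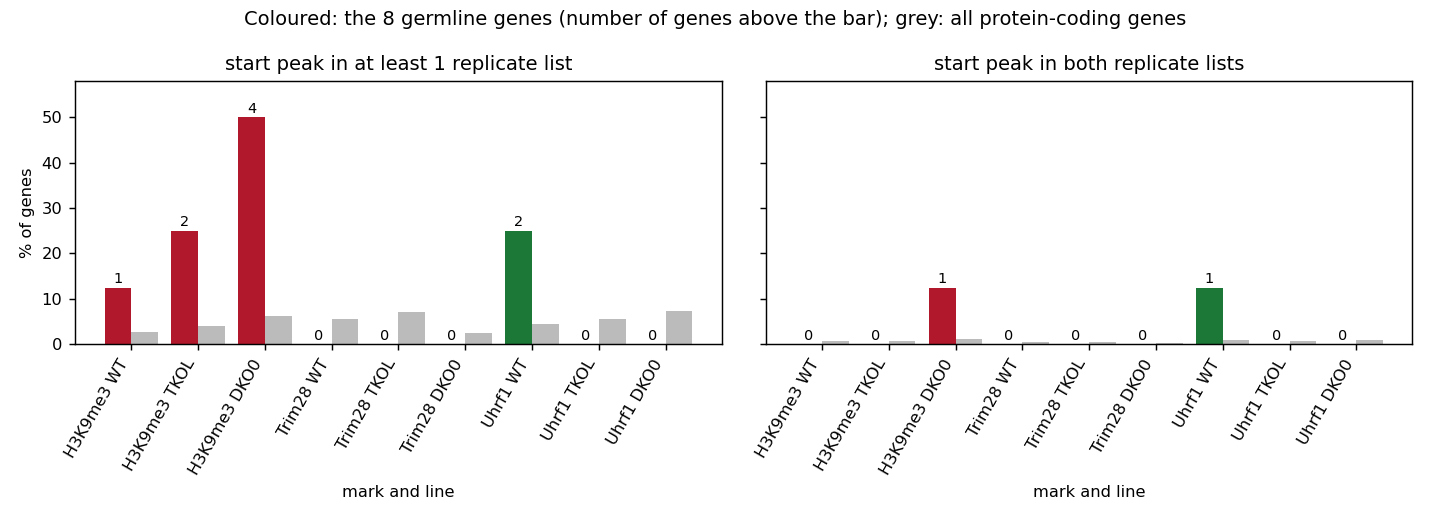
Percent of genes with a start peak (vertical axis) by mark and line (horizontal axis), for the 8 germline genes (coloured, with their number above the bar) and all protein-coding genes (grey), with at least 1 replicate list (left) or both (right). The tallest bar is H3K9me3 in DKO0, 4 of the 8 genes in at least 1 list, where replicate 1 holds all 4.

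Trim28 was not called at the start of any of the 8 genes in any of the 6 replicate lists. The counts were 0 with at least 1 list and with both, in WT, TKOL and DKO0, against 5.53%, 7.11% and 2.51% of all protein-coding genes with at least 1 list and 0.519%, 0.492% and 0.313% with both. In the pooled lists, short peaks were called at Dazl and Dpep3 in TKOL and at Dazl in DKO0, 2 genes and 1, against 7.79% and 4.03%. At Dazl these ran from 832 to 931 bp in TKOL and from 353 to 495 bp in DKO0, in an intron, and did not touch each other. Their −log10 q values of 1.29 and 1.90 exceeded 3.73% and 8.74% of the peaks of those lists. The pooled Trim28 peak at Dpep3 in TKOL ran from -209 to -55 bp with a −log10 q of 1.38.

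In the gene bodies, Sycp1 was the only one of the 8 with a peak. It had H3K9me3 and Trim28 peaks in the body in every one of the 12 replicate lists of these marks, and no Uhrf1 peak at the start or in the body in any list. With both lists asked for, H3K9me3 in the body was called at 1 of the 8 genes in WT, TKOL and DKO0 alike, against 9.6%, 11.9% and 13.4% of the 19073 protein-coding genes with a body outside the start window. For Trim28 it was again 1 of 8 in each, against 8.82%, 8.0% and 7.17%. For Uhrf1 it was 0 of 8 in each, against 16.7%, 7.58% and 5.77%. Long genes hold more peaks: of the 2401 genes of at least 100 kb, 44.5% were called for H3K9me3 in WT, 54.9% in TKOL and 57.7% in DKO0, and 45.1%, 40.8% and 37.8% for Trim28. A body peak of both marks in all 12 lists, as at Sycp1, was present in 4.29% of all these genes and in 25.5% of the long ones.

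The peaks recurred at a few places in Sycp1 (chr3:102622422-102740023, minus strand). The most reproducible lay 101.0 to 103.5 kb after the start, where 6 of 6 H3K9me3 and 6 of 6 Trim28 replicate lists had a peak. An annotated transcript of Sycp1 starts there, 102.3 kb after the gene start, and its model begins in a coding exon. Within 2 kb of that internal start, H3K9me3 peaks covered 28.3% and 12.7% in WT, 27.4% and 18.1% in TKOL, and 23.7% and 20.3% in DKO0. Trim28 covered 8.50% and 7.85% in WT, 16.6% and 6.90% in TKOL, and 4.87% and 7.67% in DKO0. Uhrf1 covered 0% in all 6. The lines overlapped for both marks: the means for H3K9me3 were 22.0% ± 2.40 in DKO0 and 22.7% ± 6.61 in TKOL (SD, n = 2 lists each), with p = 1.0 in the exact two-sided permutation test. The other 3 exact tests at this site, WT against TKOL for both marks and DKO0 against TKOL for Trim28, gave p of 0.667 or 1.0. Of 7171 protein-coding genes with an annotated transcript start more than 4 kb from the gene start, 11, or 0.153%, had peaks of both marks there in all 12 lists. That site was singled out after its values were seen.

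**Figure D4:**
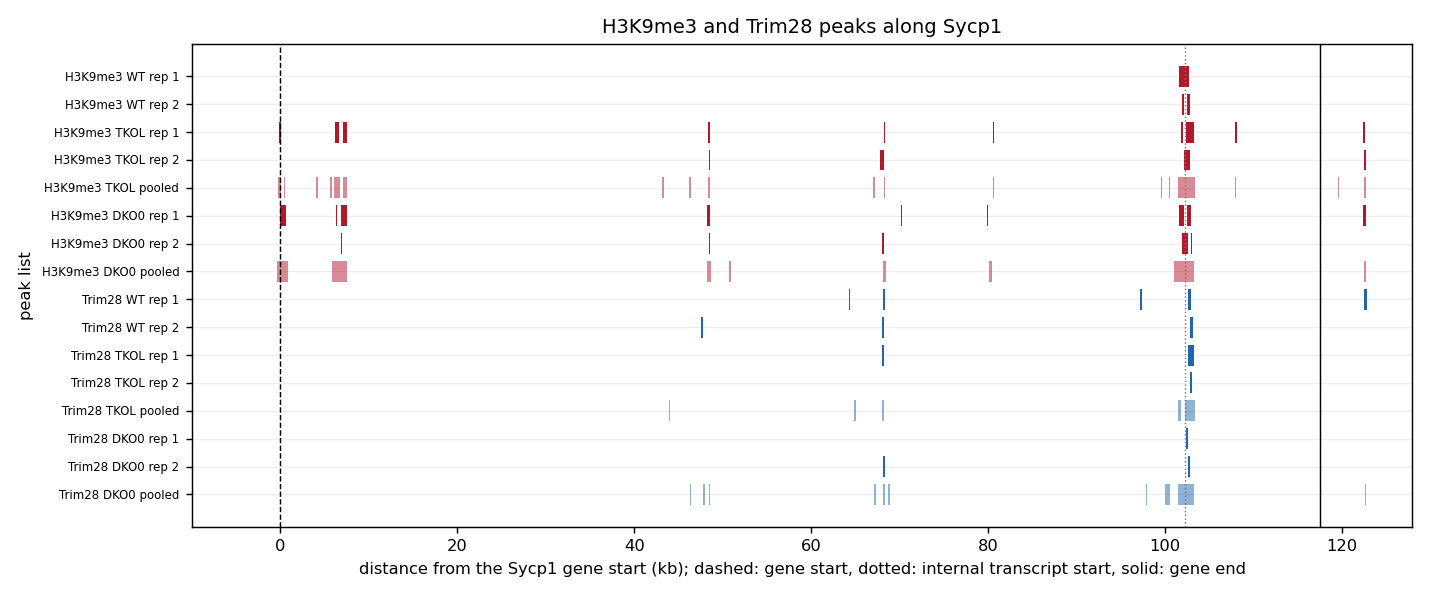
H3K9me3 (red) and Trim28 (blue) peaks along Sycp1 and 10 kb on either side, by list (vertical axis; pale bars are pooled lists), against distance from the gene start in kb (horizontal axis). A column of peaks stands within 2 kb of the internal transcript start in all 16 lists, not always over that start itself. The H3K9me3 peaks within 8 kb of the gene start are in TKOL and DKO0 lists only.

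Other sites in Sycp1, also singled out after their values were seen, were held by fewer lists. No share of all genes is given for these sites, and the WT lists were the shortest of the H3K9me3 replicate lists. H3K9me3 48 to 49 kb after the start was in both TKOL and both DKO0 lists and in 0 of the WT lists. Its strongest peak, in DKO0 replicate 1, had a fold enrichment of 4.23 and a −log10 q of 6.27, above 94.8% of its list. At 67.7 to 68.7 kb, Trim28 was in 4 of 6 lists, both lists of WT and 1 each of TKOL and DKO0, and H3K9me3 in 3 of 6, both lists of TKOL and 1 of DKO0. At 5.5 to 8.0 kb, in intron and coding exon, H3K9me3 was in 3 of 6, both lists of DKO0 and 1 of TKOL, with −log10 q of up to 4.50 in DKO0 replicate 1 and 4.14 in TKOL replicate 1 but 1.12 in DKO0 replicate 2. Trim28 was in 0 of 6 lists there.

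H3K9me3 peaks covered 0.98% and 0.44% of the Sycp1 body in WT, 2.30% and 1.13% in TKOL, and 2.12% and 1.18% in DKO0. Both WT lists lay below both TKOL lists, as did 6.27% of all genes with a body and 30.5% of those of at least 100 kb. The means were 0.71% ± 0.384 in WT and 1.72% ± 0.825 in TKOL (SD, n = 2 lists each), with p = 0.333 in the exact two-sided permutation test. The WT lists were also the shortest, and with equal numbers of peaks per list TKOL replicate 1 fell to 1.38% while the lines still did not overlap. The DKO0 and TKOL values overlapped.

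The body peaks of Sycp1 lay mostly in repeated sequence, unlike the start peaks. Every stretch of 31 bases in each region was counted over the whole mm9 genome on both strands. Under the pooled DKO0 H3K9me3 peak at the internal start, 98.4% of these stretches occurred 10 or more times and the median stretch occurred 3098 times. At 48 kb the share was 97.8%, and under the pooled DKO0 Trim28 peak at 68 kb 100.0%. Of the 39 body peaks in replicate lists, 31 had more than 50% of their stretches present 10 or more times, and of the 14 start peaks 0 had. All 5 peaks at 5.5 to 8.0 kb were among the 8 that did not. All 39 body peaks were at Sycp1, and the same few sites were counted again in each list, so they are not 39 separate places. The share of repeated stretches over all peaks of these marks was not counted. In the 8 start windows the share was 0% at Sycp1 and at most 8.03%, at Hormad1. The WT replicate 2 peak upstream of Dpep3 had the largest share of any start peak, 43.3%. How the aligner placed reads from repeated sequence was not tested. The peak names of single H3K9me3 and Trim28 lists show no input library, and the effect of this at repeated sequence was not tested either.

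**Figure D5:**
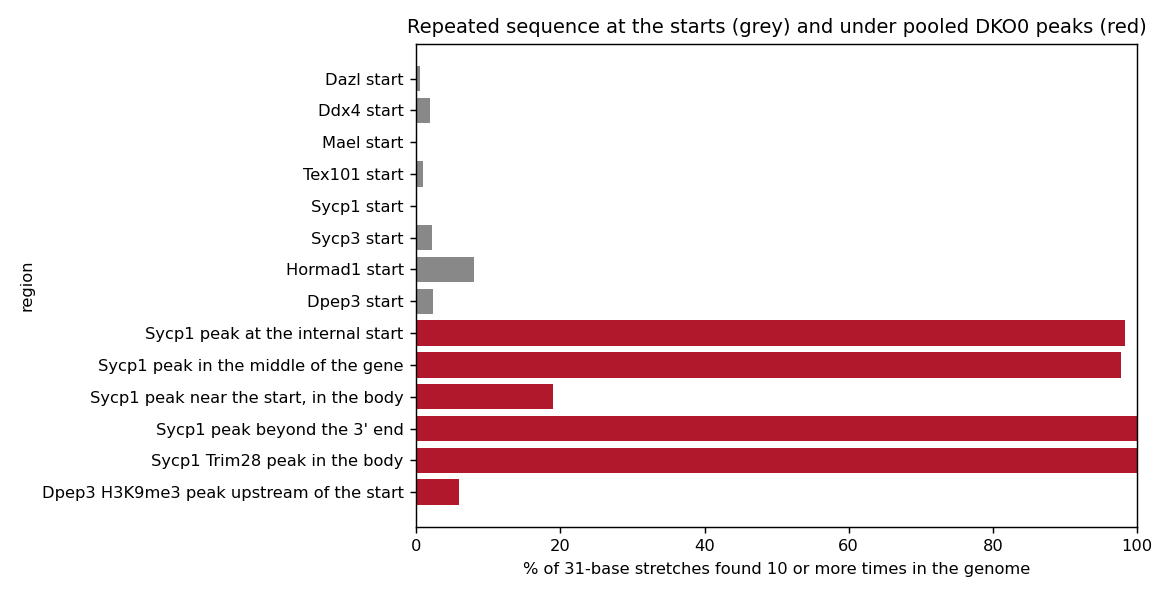
Percent of 31-base stretches found 10 or more times in the mm9 genome (horizontal axis) in the 8 start windows (grey) and under pooled DKO0 peaks at Sycp1 and Dpep3 (red). The starts lie at 8.03% or less, and the Sycp1 peaks at the internal start, at 48 kb, at 68 kb and beyond the 3′ end at 97.8% or more.

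In the 10 kb on either side, peaks were scattered. A site 122.4 to 122.9 kb after the Sycp1 start, beyond the gene end, had H3K9me3 in both TKOL lists and 1 DKO0 list and Trim28 in 1 WT list, and all of its stretches under the pooled DKO0 peak were repeated 10 or more times. Beyond the 3′ end of Ddx4, H3K9me3 was in TKOL replicate 1 and DKO0 replicate 2, and Trim28 in TKOL replicate 1. Hormad1 had a single H3K9me3 peak, from -3251 to -3117 bp in TKOL replicate 1, and Tex101 a single one, from -2761 to -2623 bp in the pooled DKO0 list. Around Dpep3, Uhrf1 in WT replicate 2 lay in an exon of the neighbouring Dpep2, and Trim28 in WT replicate 1 lay beyond the 3′ end. Sycp3, whose start lies within the oppositely oriented gene Chpt1, had no peak of any mark within 10 kb in any of the 24 lists.

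The other germline genes of a fixed list of 30, of which 29 matched, were counted by the same rules. H3K9me3 was at the start in at least 1 replicate list for 2 of 29 (6.90%) in WT, 2 (6.90%) in TKOL and 6 (20.7%) in DKO0, against 12.5%, 25.0% and 50.0% of the 8 genes and the shares of all genes given above. As with the 8 genes, the DKO0 calls came mostly from 1 library: replicate 1, the longest H3K9me3 replicate list, held all 6. In both lists H3K9me3 was at the start for 0, 0 and 1. The 1 was Tex12, a synaptonemal complex protein, with 14.9% and 3.10% of its window covered in DKO0 and 0% in the other 4 lists. Trim28 was there in both lists for 1 gene in WT and for 0 in TKOL and in DKO0. The shares of all genes were 0.519%, 0.492% and 0.313%. The 1 in WT was Rec8, the meiotic cohesin subunit, with 5.72% and 5.82% of its window covered. Uhrf1 was in both lists for 0 in every line. Both genes were singled out after their values were seen, and no gene of the list had H3K9me3 at its start in both lists of all 3 lines. Of 10 pluripotency and 10 housekeeping genes, 0 had H3K9me3 at the start in both lists of a line. With at least 1 list, it was at 0 of the pluripotency genes in WT and TKOL and at 1, Zfp42, in DKO0. Zfp42 had 13.3% of its window covered in DKO0 replicate 1. The housekeeping genes had 0 in every line by this rule too. Uhrf1 was at the start in both lists for 2 of the 10 pluripotency genes in TKOL and for the same 2 in DKO0, Zfp42 and Lin28a. The shares of all protein-coding genes were 0.733% in TKOL and 1.01% in DKO0. Trim28 was there in both lists for 1 in TKOL, Zfp42, against 0.492% of all genes. These genes were all named after their values were seen. The housekeeping genes had 0 in both lists for each mark and line.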

How the data were processed

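Peak lists of H3K9me3, Trim28 and FLAG-tagged Uhrf1 from WT, TKOL and DKO0 ESCs were used, 18 replicate and 6 pooled. Reads had been aligned to mm9 with BWA, duplicates removed with GATK and broad peaks called with MACS2. Each deposited peak has a score, a fold enrichment (a linear ratio) and −log10 p-value and q-value from the authors' caller, comparable within a list. Peak names show that pooled H3K9me3 and Trim28 lists were called with a further library, presumably input, while those of single lists name none. No list ran past an mm9 chromosome end.

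Peaks were intersected with GENCODE vM1 records (at least 1 bp), in Python 3.11.15 with numpy 2.4.6 and pandas 2.3.3. The overlaps were checked against bedtools 2.31.1 (0 of 24 lists differed) and on planted peaks. The covered share of start windows was compared between lines with exact two-sided permutation tests (scipy 1.17.1). The 8 genes and the gene lists were chosen with earlier results of these data known. All 8 genes were described, and other germline, pluripotency or housekeeping genes were to be named where H3K9me3 lay at the start in both lists (for other germline genes, of all lines). Alternatives were the window, the start, the overlap, −log10 q, list size, pooled lists, replicates left out and a replicate block. Hairpin bisulfite data were not used here.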

Additional observations from a re-analysis of the deposited data

How the results depend on the processing

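Counts are small, so most changes are of 1 or 2 genes. A −log10 q of at least 5 brought every count of 1 to 0: H3K9me3 at the start in DKO0, Uhrf1 at the start in WT, body peaks of H3K9me3 and of Trim28 in all 3 lines, and Uhrf1 in WT above TKOL. Equal numbers of peaks per list gave 0 for H3K9me3 at the start in DKO0, Uhrf1 at the start in WT, Trim28 in the body in DKO0 and Uhrf1 in WT above TKOL. A 1 kb window gave 0 for H3K9me3 in DKO0, and an overlap of at least 200 bp gave 0 for Trim28 in the body in DKO0. Counting any annotated transcript start added Sycp1, so H3K9me3 rose to 1 in WT, 1 in TKOL and 2 in DKO0, and Trim28 to 1 in each line. The whole body gave 1 for Uhrf1 in WT. The pooled lists gave H3K9me3 start counts of 2 in TKOL and 4 in DKO0, Trim28 2 and 1, and Uhrf1 1 in DKO0. Without a replicate, H3K9me3 start counts were 0 to 1 in WT, 0 to 2 in TKOL and 1 to 4 in DKO0, and Uhrf1 in WT 1 to 2. Without a replicate, the counts for H3K9me3 in DKO0 above TKOL were 1 to 4, in WT above TKOL 0 to 1 and below 0 to 2, and for Uhrf1 in WT above TKOL 1 to 2. With the replicate block, which compares lists of the same number, 1 gene, Dpep3, had more H3K9me3 at the start in DKO0 than in TKOL in both numbers, and the other 11 such counts were the same. The labels do not say that a number marks a shared culture or day. For the body coverage of Sycp1, chosen after seeing the data, equal numbers of peaks moved the WT minus TKOL difference from -1.01 to -0.55 percentage points. For H3K9me3 at Dpep3 the difference between WT and TKOL changed sign: without replicate 1, WT had 3.0% of the start window covered and TKOL 0%, and without replicate 2, WT had 0% and TKOL 10.8%.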
